A study of Mus musculus with 8 samples.

Results

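Cell cycle and mitosis genes were examined as a set of 45 genes out of 48587 gene symbols in the count table. They were chosen by symbol for their function, and the rule itself names no measured value. The choice was made with earlier results of these data known, so it is not independent of them. The set holds genes of DNA replication, nucleotide supply, G1 control, mitotic entry, the spindle checkpoint, the kinetochore and the spindle, with the proliferation antigen gene Mki67. All 45 symbols were found, and all 45 were among the 16194 genes that passed a filter on low counts and were tested.

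The samples were 8 poly-A RNA libraries of the whole aortic tree of mice, 2 in each of 4 groups. The groups were vitamin D (VitD) in mice labelled with a knockout of Tet2 in vascular smooth muscle (Tet2KO_VitD), VitD in wild-type mice (WT_VitD), vehicle in mice with that knockout label (Tet2KO_vehicle), and vehicle in wild-type mice (WT_vehicle), wild type being litter controls. The series concerns Tet2, osteogenic change of smooth muscle and calcification of the aortic media. The labels give no strain, age, dose, duration, Cre line, deleted part of Tet2 or number of mice per library. They also do not say that replicate libraries are of different animals, so every p-value here reflects library-to-library spread that could be technical. The 2 libraries of a group differed by 27.3 to 108 times the variance of counting alone (chi-square per degree of freedom), so none was counted as a repeat of another.

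Libraries held 15679274 to 22332149 counts, and the 45 members took 0.0302% to 0.0935% of them. The 12 contractile smooth muscle markers summed to 18660 to 38160 CPM (counts scaled for library size, with TMM factors) and none of them was at 0, so the defining markers of the labelled tissue were present. Tet2 itself did not stand lower under the knockout label, at 26.6 and 37.6 CPM in Tet2KO_VitD, 18.3 and 20.04 CPM in WT_VitD, 42.03 and 35.2 CPM in Tet2KO_vehicle, and 35.8 and 32.2 CPM in WT_vehicle libraries. The genotype is therefore given throughout as a label. Numbers in the library names lay over 5000 for both WT_VitD libraries and Tet2KO_VitD 1, and under 5000 for Tet2KO_VitD 2 and the 4 vehicle libraries, here called the higher and the lower number range. In WT the number range and the treatment therefore cannot be told apart, while the libraries labelled Tet2 knockout hold 1 VitD library in each range.

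A dividing cell copies its DNA in S phase and separates the copies in mitosis. D and E cyclins with their kinases release E2F factors at the passage from G1 to S phase, and E2F factors drive genes of replication and nucleotide supply. Genes of G2 and mitosis are driven later by MuvB complexes with B-MYB and FOXM1, many of them through a short promoter element called the cell cycle homology region next to CCAAT boxes. Most smooth muscle cells of a healthy adult aorta rest outside the cycle, and both smooth muscle cells and macrophages can divide in a damaged artery.

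Promoters were examined because the members differ in when they are used in the cycle. RefSeq windows of 300 bases (build GRCm38.p6), from 250 bases before to 50 bases after the annotated start, were found for 36 of the 45 members. No window was matched for Ccnd1, Mcm4, Aurkb, Foxm1, Tpx2, Ccna2, Kif20a, Ccne2 and Gins2. The letters searched on both strands were TTTGAA and TTTAAA of the cell cycle homology region type, CCAAT of the NF-Y type, and TTTNGCGC and TTCCCGCC of the E2F type. Of 108 matches, 2 pairs of different motifs overlapped, and TTTNGCGC can match both strands at one place. The following 6 windows were picked after the expression values were seen, to show genes of mitosis, replication and G1 with large, small and nearly no VitD differences. They are read along the gene's strand, in lower case with matches in capitals. Cdk1, chr10:69352863-69353162, minus strand, has the largest log2 fold change of the set in WT, and Ccnb2, chr9:70421505-70421804, minus strand, and Cdc20, chr4:118437294-118437593, minus strand, are other genes of mitosis. Mcm5, chr8:75109259-75109558, plus strand, has the largest log2 among the replication genes, Mcm6, chr1:128359656-128359955, minus strand, holds 3 E2F type matches and had the smallest log2 of the 35 called members in WT, and Cdk2, chr10:128705002-128705301, minus strand, has the smallest log2 of the set in WT.
Cdk1: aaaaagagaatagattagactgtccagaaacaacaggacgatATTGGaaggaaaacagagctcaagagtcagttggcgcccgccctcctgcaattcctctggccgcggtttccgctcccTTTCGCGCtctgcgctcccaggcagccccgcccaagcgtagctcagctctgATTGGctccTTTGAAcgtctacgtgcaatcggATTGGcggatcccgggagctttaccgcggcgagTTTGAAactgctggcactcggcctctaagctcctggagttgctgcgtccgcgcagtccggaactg
Ccnb2: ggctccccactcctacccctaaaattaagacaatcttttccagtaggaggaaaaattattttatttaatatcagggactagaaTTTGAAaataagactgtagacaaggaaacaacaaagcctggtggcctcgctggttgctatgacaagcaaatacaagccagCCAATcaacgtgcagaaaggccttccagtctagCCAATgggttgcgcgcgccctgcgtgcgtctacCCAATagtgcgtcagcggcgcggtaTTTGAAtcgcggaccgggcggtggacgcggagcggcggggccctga
Cdc20: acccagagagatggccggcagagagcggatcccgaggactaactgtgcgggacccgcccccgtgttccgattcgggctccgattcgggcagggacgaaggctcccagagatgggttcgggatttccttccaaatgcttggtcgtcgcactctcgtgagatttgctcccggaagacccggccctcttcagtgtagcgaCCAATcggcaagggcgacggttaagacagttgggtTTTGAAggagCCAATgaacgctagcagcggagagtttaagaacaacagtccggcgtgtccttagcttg
Mcm5: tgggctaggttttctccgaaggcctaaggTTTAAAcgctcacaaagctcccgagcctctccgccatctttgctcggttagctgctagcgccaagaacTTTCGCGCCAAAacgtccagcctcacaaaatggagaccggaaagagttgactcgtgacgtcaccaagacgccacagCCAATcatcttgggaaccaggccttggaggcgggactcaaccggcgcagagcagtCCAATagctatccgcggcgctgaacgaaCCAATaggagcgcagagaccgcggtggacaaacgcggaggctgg
Mcm6: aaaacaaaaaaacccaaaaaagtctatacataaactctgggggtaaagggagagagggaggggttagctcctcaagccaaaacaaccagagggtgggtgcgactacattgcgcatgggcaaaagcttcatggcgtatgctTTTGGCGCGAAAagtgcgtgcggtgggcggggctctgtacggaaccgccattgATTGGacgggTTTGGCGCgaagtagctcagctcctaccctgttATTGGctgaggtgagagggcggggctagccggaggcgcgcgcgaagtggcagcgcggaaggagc
Cdk2: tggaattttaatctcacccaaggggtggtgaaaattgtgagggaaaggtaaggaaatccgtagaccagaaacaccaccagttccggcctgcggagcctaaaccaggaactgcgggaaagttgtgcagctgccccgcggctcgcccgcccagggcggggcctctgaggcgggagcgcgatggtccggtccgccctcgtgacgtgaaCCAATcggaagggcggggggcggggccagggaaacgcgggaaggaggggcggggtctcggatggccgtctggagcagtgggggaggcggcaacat

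In these windows Cdk1 holds TTTGAA at 2 places and CCAAT at 3, Ccnb2 likewise holds them at 2 and 3 places, and Cdc20 holds TTTGAA at 1 place between 2 CCAAT boxes. In Cdc20 the TTTGAA match begins 18 bases before the start and the CCAAT boxes begin 53 and 8 bases before it. Mcm5 and Mcm6 hold no TTTGAA. Their TTTNGCGC letters read on both strands at 1 place, which gives 2 overlapping matches in Mcm5, and in Mcm6 a further match lies closer to the start. Cdk2 holds 1 CCAAT box and none of the other letters, and the windows of Cdc6, Tyms, E2f1, Mybl2 and Nusap1 hold no match at all. The windows of Cdc6, E2f1, Mcm7 and Cdca8 lie wholly inside the gene as annotated in GENCODE M21. They miss the sequence at and before its outermost start, where letters were not searched. Cdk1 also holds TTTNGCGC at 1 place, and Mcm5 TTTAAA at 1.

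Across the set, TTTGAA was found in 15 of 20 genes of G2, mitosis and Mki67 (75%), in 2 of 16 genes of replication, nucleotide supply and G1 (12.5%), and in 5466 of 27025 genes with a window (20.2%). TTTGAA and CCAAT stood together in 17 of 36 members (47.2%), against 7.97% of all genes. CCAAT alone was found in 18 of 20 (90%) and 10 of 16 (62.5%) of the same gene groups, against 41.1% of all genes. E2F type letters TTTNGCGC were found in 1 of 20 genes of G2 and mitosis and in 4 of 16 genes of replication, nucleotide supply and G1 (25%), against 1.57% of all genes. TTCCCGCC was found in 2 of 36 members (5.56%), against 2.52% of all genes, and TTTAAA in 10 of 36 (27.8%), against 14.9%. These shares describe letters in a window and carry no test. The 17 members with TTTGAA had a median log2 for VitD in WT of 2.38, and the 19 members with a window but no TTTGAA had 1.51. Of those 17, 15 are genes of G2, mitosis and Mki67, so this contrast largely repeats that of the gene groups. Within G2, mitosis and Mki67, genes with TTTGAA ranged from 1.51 (Prc1) to 3.29 (Cdk1). Those without it had 2.93 (Ccnb1), 2.66 (Bub1), 2.61 (Birc5), 2.58 (Cenpe) and 1.81 (Nusap1).

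**Figure D1:**
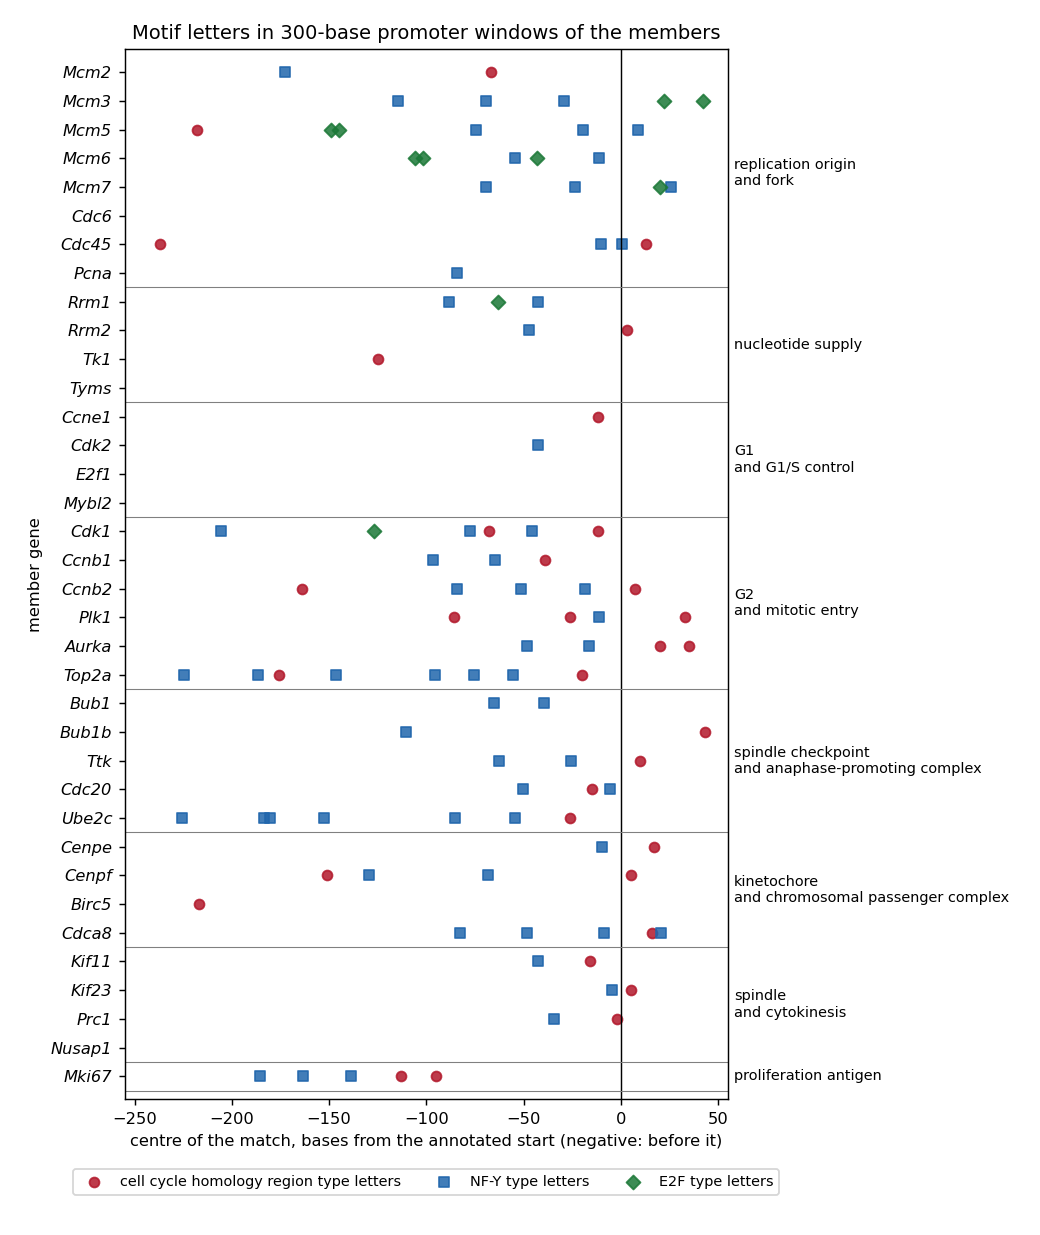
Position of motif letters in the promoter windows of 36 members, by functional group. The horizontal axis gives the centre of each match in bases from the annotated start, and red circles mark TTTGAA or TTTAAA, blue squares CCAAT and green diamonds TTTNGCGC or TTCCCGCC. Red circles stand in most rows of G2 and mitosis (TTTGAA or TTTAAA in 18 of 20 genes), and green diamonds in 5 of the 16 rows of replication, nucleotide supply and G1.

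VitD against vehicle in WT asks how the treatment moves the set in control mice. All 45 members had a log2 fold change above 0, and 35 of 45 rose at an edgeR adjusted p under 0.05, while none fell. Among all genes tested 10.6% rose and 9.47% fell. The members' median log2 was 1.95, a 3.87-fold median difference, against -0.028 over all 16194 genes. In 41 members both WT_VitD libraries lay above both WT_vehicle libraries, as did 33.8% of all genes. The exceptions were Mcm4, Mcm7, Ccne2 and Cdk2. In a bulk tissue, more dividing cells and more of these RNAs per dividing cell cannot be told apart. The summed level of 13 macrophage markers moved with the set, at 1718 to 3320 CPM in VitD libraries and 775 to 1133 CPM in vehicle libraries, and its part in the result was not tested.

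The 10 members that missed the threshold in WT were Mcm4, Mcm7, Cdc45, Pcna, Tk1, Ccnd1, Ccne2, Cdk2, Mybl2 and Kif11. All 45 medians and counts rest on 2 libraries a group, and the libraries of a group differed. WT_VitD 2 lay above WT_VitD 1 in 43 of 45 members, with a median ratio of 1.51, and WT_vehicle 1 above WT_vehicle 2 in 42, with a median ratio of 1.66. WT_VitD 2 was the highest of the 8 libraries for 41 members and WT_vehicle 2 the lowest for 31. The count of 35 was 0 without WT_VitD 2 (32 at an unadjusted p under 0.05), 2 without WT_vehicle 2 (Plk1 and Birc5), 11 without WT_vehicle 1 and 23 without WT_VitD 1. With the number range added to the model the count of members was 0, with 15 at an unadjusted p under 0.05 and a median log2 of 1.36. The effect of the range there rests on the difference between both Tet2KO_VitD libraries. Over all genes that fit called 58, against 3251 in the main fit. Calls over all genes also fell in each of the fits without 1 WT library, and whether the members lost more than their share was not tested. The members' median log2 was 1.55 without WT_VitD 2 and 1.64 without WT_vehicle 2. It was 2.31 without WT_VitD 1 and 2.39 without WT_vehicle 1. DESeq2 called 37 members higher, against 13.1% of all genes, and limma voom with quality weights 37, against 14.4%.

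**Figure D2:**
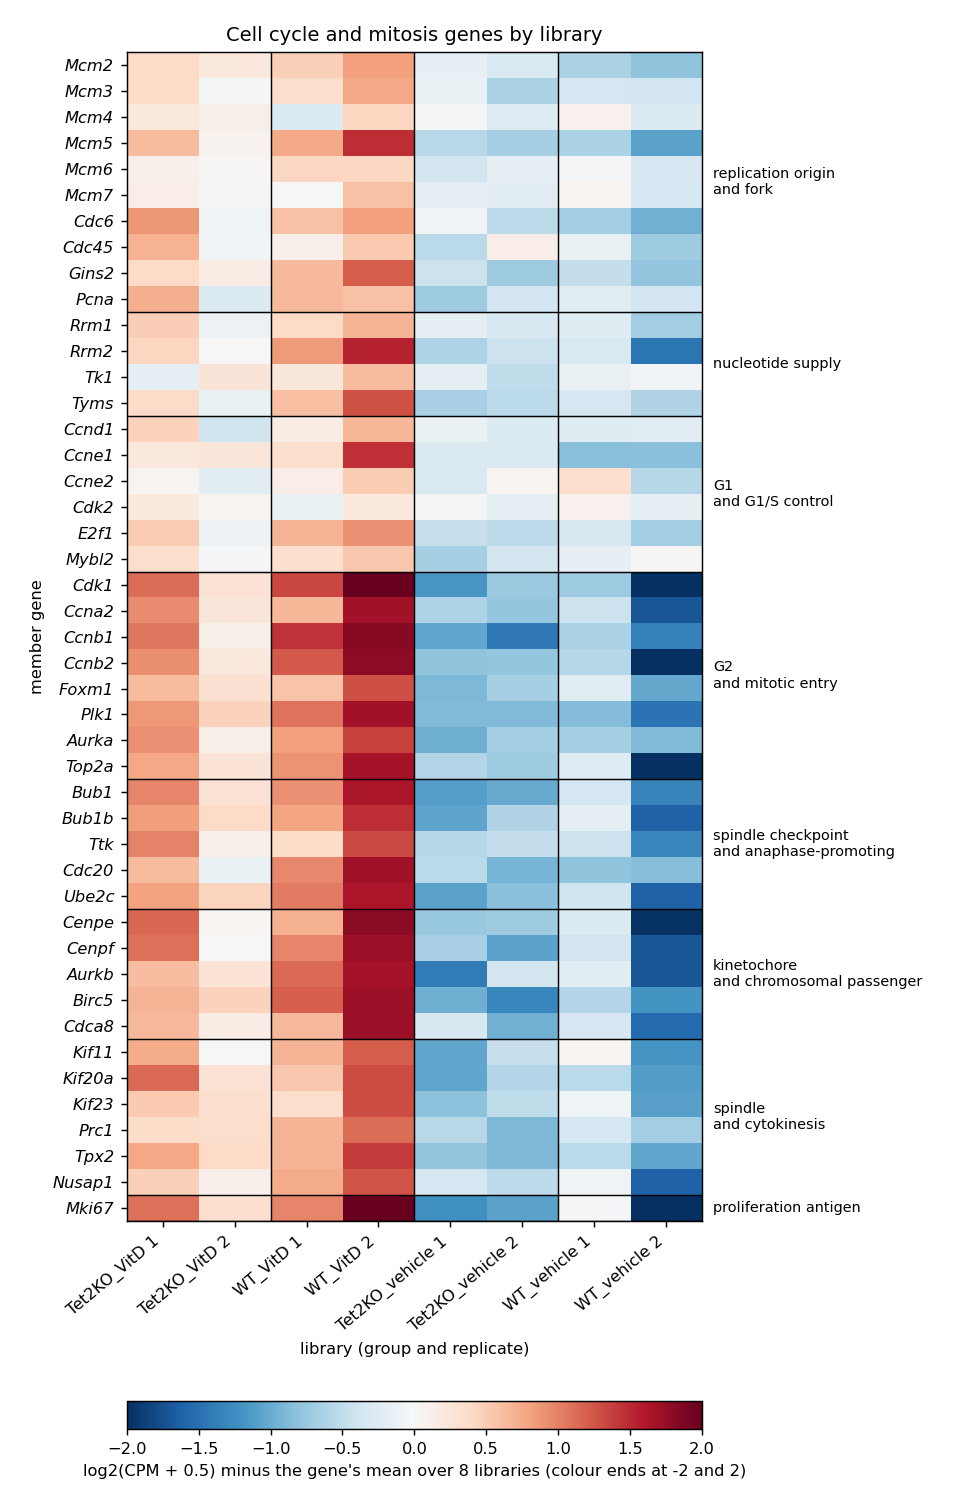
Level of each of the 45 members in each of the 8 libraries, by functional group. Colour gives log2(CPM + 0.5) minus the mean of the gene over the 8 libraries, red above and blue below, with ends at -2 and 2. The 4 VitD columns stand left of the 4 vehicle columns, WT_VitD 2 is the reddest column and WT_vehicle 2 the bluest, and the rows of G2 and mitosis show deeper colours than those of replication and G1.

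Genes of mitotic entry rose in 8 of 8 cases in WT, with a median log2 of 2.65. Cdk1, the kinase that drives cells into mitosis, had 10.9 and 5.90 CPM in Tet2KO_VitD, 12.7 and 20.5 CPM in WT_VitD, 1.84 and 2.62 CPM in Tet2KO_vehicle, and 2.67 and 0.741 CPM in WT_vehicle libraries. Every VitD library lay above every vehicle library, and WT_vehicle 2 stood lowest (log2 3.29, SE 0.578, adjusted p = 0.0118 in WT). Ccnb1, the cyclin that activates CDK1, had 7.95 and 3.92 CPM in Tet2KO_VitD, 10.5 and 13.9 CPM in WT_VitD, 1.47 and 1.005 CPM in Tet2KO_vehicle, and 2.11 and 1.08 CPM in WT_vehicle libraries. Both WT_VitD libraries were the highest and no VitD library overlapped the vehicle libraries (log2 2.93, SE 0.477, adjusted p = 0.00967). Plk1, a polo-like kinase needed for entry into mitosis and for spindle poles, had 5.47 and 4.05 CPM in Tet2KO_VitD, 6.49 and 10.02 CPM in WT_VitD, 1.29 and 1.28 CPM in Tet2KO_vehicle, and 1.31 and 0.684 CPM in WT_vehicle libraries. The 4 vehicle libraries stood at or below 1.31 CPM, and Plk1 had the smallest p of the set (log2 3.05, SE 0.439, adjusted p = 0.00667).

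Top2a, the topoisomerase that untangles sister chromatids, had 26.3 and 18.6 CPM in Tet2KO_VitD, 28.9 and 49.1 CPM in WT_VitD, 10 and 9.10 CPM in Tet2KO_vehicle, and 12.6 and 3.25 CPM in WT_vehicle libraries. WT_VitD 2 stood well above the others and WT_vehicle 2 well below, without overlap between VitD and vehicle (log2 2.31, SE 0.533, adjusted p = 0.0228). Foxm1, a transcription factor of G2 and mitosis genes, had 9.13 and 7.17 CPM in Tet2KO_VitD, 8.74 and 14.6 CPM in WT_VitD, 2.82 and 3.41 CPM in Tet2KO_vehicle, and 4.85 and 2.56 CPM in WT_vehicle libraries. Its rise in WT was the smallest of this group (log2 1.66, SE 0.391, adjusted p = 0.0240). The other genes that rose were Ccna2, the cyclin of S phase and G2, with a log2 of 2.36, Ccnb2, a B cyclin, with 3.05, and Aurka, the centrosome kinase, with 2.23. The number of these 8 genes called was 8 without WT_VitD 1, 0 without WT_VitD 2, 5 without WT_vehicle 1, 1 without WT_vehicle 2 and 0 with the number range in the model, with medians between 1.86 and 3.54.

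Mki67, which encodes the surface protein of mitotic chromosomes used as a marker of cycling cells, had 30.4 and 17.7 CPM in Tet2KO_VitD, 28 and 57.6 CPM in WT_VitD, 5.65 and 6.37 CPM in Tet2KO_vehicle, and 13.6 and 2.91 CPM in WT_vehicle libraries. The WT_vehicle libraries differed more, as a ratio, than those of any other group, and VitD and vehicle still did not overlap (log2 2.38, SE 0.626, adjusted p = 0.0320). Its call in WT ended without WT_VitD 2 (log2 1.77), without WT_vehicle 2 (log2 1.66) and with the number range in the model (log2 1.60), and also without either Tet2KO_vehicle library (log2 2.38), libraries that enter this contrast through the shared estimate of the spread. It stood without WT_VitD 1 (log2 2.85) and without WT_vehicle 1 (log2 3.89).

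**Figure D3:**
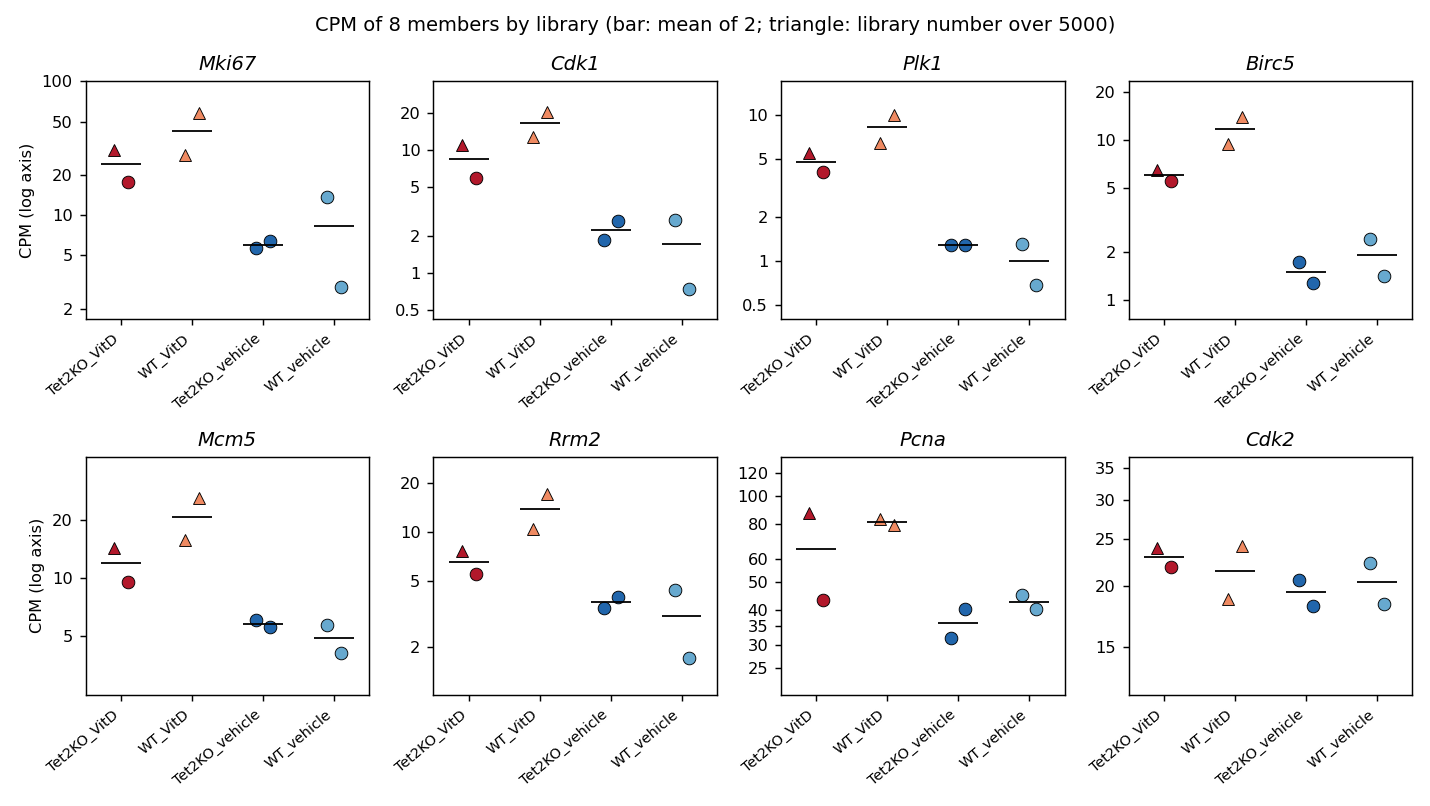
CPM of 8 members by library, on a log axis that differs between panels. Points are libraries, bars the mean of 2 libraries, and triangles mark library numbers of the higher range. In the panels of Mki67, Cdk1, Plk1, Birc5, Mcm5 and Rrm2 every VitD point stands above every vehicle point, in that of Pcna one Tet2KO_VitD point stands among the vehicle points, and in that of Cdk2 the groups overlap.

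Genes of the spindle checkpoint and the anaphase-promoting complex rose in 5 of 5 cases in WT, with a median log2 of 2.41. Cdc20, the activator that turns the complex on at anaphase, had 7.39 and 4.14 CPM in Tet2KO_VitD, 9.40 and 15.96 CPM in WT_VitD, 3.01 and 2.18 CPM in Tet2KO_vehicle, and 2.42 and 2.34 CPM in WT_vehicle libraries. Both vehicle groups lay close together and below all VitD libraries (log2 2.41, SE 0.409, adjusted p = 0.0106). Ube2c, the ubiquitin-conjugating enzyme of that complex, had 8.57 and 6.51 CPM in Tet2KO_VitD, 10.1 and 15.6 CPM in WT_VitD, 1.96 and 2.40 CPM in Tet2KO_vehicle, and 3.42 and 1.20 CPM in WT_vehicle libraries. Its VitD libraries did not overlap the vehicle libraries (log2 2.48, SE 0.476, adjusted p = 0.0143), and 592 bases of its exons overlap exons of Tnnc2 on the other strand. Bub1, a checkpoint kinase at kinetochores, had 3.73 and 2.11 CPM in Tet2KO_VitD, 3.51 and 6.11 CPM in WT_VitD, 0.491 and 0.558 CPM in Tet2KO_vehicle, and 1.18 and 0.342 CPM in WT_vehicle libraries. It had the largest rise of this group (log2 2.66, SE 0.623, adjusted p = 0.0234). Bub1b, which encodes the checkpoint protein BUBR1, had 7.52 and 5.37 CPM in Tet2KO_VitD, 7.28 and 12.1 CPM in WT_VitD, 1.66 and 2.46 CPM in Tet2KO_vehicle, and 3.42 and 0.968 CPM in WT_vehicle libraries. Its rise was the smallest of this group (log2 2.15, SE 0.554, adjusted p = 0.0305). Ttk, the MPS1 checkpoint kinase, rose by a log2 of 2.39. Called genes numbered 3 without WT_VitD 1, 0 without WT_VitD 2, 2 without WT_vehicle 1, 0 without WT_vehicle 2 and 0 with the number range in the model, with medians between 1.66 and 3.43.

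Genes of the kinetochore and the chromosomal passenger complex also rose in 5 of 5 cases, with a median log2 of 2.61. Aurkb, the kinase of the passenger complex that corrects chromosome attachment, had 4.04 and 3.08 CPM in Tet2KO_VitD, 5.96 and 8.89 CPM in WT_VitD, 0.614 and 1.79 CPM in Tet2KO_vehicle, and 2.05 and 0.399 CPM in WT_vehicle libraries. Both vehicle groups spread widely, and the lowest VitD library still lay above the highest vehicle library (log2 2.61, SE 0.706, adjusted p = 0.0349). Birc5, which encodes survivin of the same complex, had 6.52 and 5.54 CPM in Tet2KO_VitD, 9.53 and 13.9 CPM in WT_VitD, 1.72 and 1.28 CPM in Tet2KO_vehicle, and 2.42 and 1.42 CPM in WT_vehicle libraries. VitD and vehicle did not overlap, and its call in WT was 1 of 2 that stood without WT_vehicle 2 (log2 2.61, SE 0.380, adjusted p = 0.00676). Cdca8, the complex member borealin, had 4.97 and 3.34 CPM in Tet2KO_VitD, 4.96 and 10.98 CPM in WT_VitD, 2.27 and 1.28 CPM in Tet2KO_vehicle, and 2.24 and 0.684 CPM in WT_vehicle libraries. Its rise was the smallest of this group (log2 2.46, SE 0.619, adjusted p = 0.0286).

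Cenpf, a kinetochore protein made in G2, had 7.83 and 3.39 CPM in Tet2KO_VitD, 7.15 and 12.2 CPM in WT_VitD, 1.96 and 1.34 CPM in Tet2KO_vehicle, and 2.49 and 0.684 CPM in WT_vehicle libraries. No VitD library overlapped the vehicle libraries (log2 2.62, SE 0.635, adjusted p = 0.0256). Cenpe, the kinetochore motor that aligns chromosomes, rose by a log2 of 2.58. For the 5 genes of kinetochore and passenger complex, called genes numbered 2 without WT_VitD 1, 0 without WT_VitD 2, 1 each without WT_vehicle 1 and without WT_vehicle 2, and 0 with the number range in the model, with medians between 1.86 and 3.82.

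Genes of the spindle and cytokinesis rose in 5 of 6 cases, with a smaller median log2 of 1.68. Kif20a, the motor that carries the passenger complex to the midzone, had 9.19 and 4.93 CPM in Tet2KO_VitD, 5.96 and 10.4 CPM in WT_VitD, 1.66 and 2.46 CPM in Tet2KO_vehicle, and 2.55 and 1.54 CPM in WT_vehicle libraries. Its values rose most within this group (log2 2.01, SE 0.470, adjusted p = 0.0234), while 1271 bases of its exons overlap Cdc23 on the other strand. Prc1, which bundles midzone microtubules, had 10.5 and 10.4 CPM in Tet2KO_VitD, 13.2 and 18.1 CPM in WT_VitD, 5.34 and 4.08 CPM in Tet2KO_vehicle, and 6.22 and 4.79 CPM in WT_vehicle libraries. The groups under VitD did not overlap those under vehicle, and the rise in WT was the smallest here (log2 1.51, SE 0.280, adjusted p = 0.0132), with 911 bases shared with Rccd1 on the other strand. Tpx2, a spindle assembly factor, Nusap1, a spindle microtubule binder, and Kif23, a cytokinesis motor, rose by 1.95, 1.81 and 1.56 on the log2 scale. Kif11, the motor that separates spindle poles, had a log2 of 1.52 (adjusted p = 0.0568). Without WT_VitD 1 the number called in this group was 3, without WT_VitD 2 it was 0, without WT_vehicle 1 it was 1, without WT_vehicle 2 it was 0 and with the number range in the model it was 0, with medians between 1.25 and 2.33.

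Replication genes moved less, with 6 of 10 called higher in WT and a median log2 of 0.95. Mcm5, a subunit of the replicative helicase, had 14.4 and 9.55 CPM in Tet2KO_VitD, 15.8 and 26.2 CPM in WT_VitD, 6.01 and 5.53 CPM in Tet2KO_vehicle, and 5.66 and 4.04 CPM in WT_vehicle libraries. VitD and vehicle did not overlap and the rise was the largest of this group (log2 2.11, SE 0.341, adjusted p = 0.00930). Cdc6, which loads the helicase at origins, had 5.59 and 2.64 CPM in Tet2KO_VitD, 4.44 and 5.32 CPM in WT_VitD, 2.64 and 1.79 CPM in Tet2KO_vehicle, and 1.55 and 1.20 CPM in WT_vehicle libraries. WT_VitD lay above all vehicle libraries, while Tet2KO_VitD 2 stood level with Tet2KO_vehicle 1 (log2 1.83, SE 0.465, adjusted p = 0.0297). Gins2, a part of the active helicase, had 5.40 and 4.49 CPM in Tet2KO_VitD, 6.55 and 9.85 CPM in WT_VitD, 2.82 and 2.23 CPM in Tet2KO_vehicle, and 2.74 and 2.11 CPM in WT_vehicle libraries. All VitD libraries lay above all vehicle libraries (log2 1.76, SE 0.352, adjusted p = 0.0159), and 2758 bases of its exons overlap Gse1 on the other strand.

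Pcna, the sliding clamp of DNA polymerases, had 86.8 and 43.4 CPM in Tet2KO_VitD, 82.8 and 79.1 CPM in WT_VitD, 31.8 and 40.1 CPM in Tet2KO_vehicle, and 44.9 and 40.2 CPM in WT_vehicle libraries. Only 3 of the VitD libraries stood apart, all of the higher number range, and the WT difference missed the threshold (log2 0.93, SE 0.294, adjusted p = 0.0545, -0.072 with the number range in the model). Mcm4, another helicase subunit, had 23.97 and 22.3 CPM in Tet2KO_VitD, 16.9 and 27.96 CPM in WT_VitD, 19.9 and 17.1 CPM in Tet2KO_vehicle, and 21.9 and 16.9 CPM in WT_vehicle libraries. The groups overlapped, and its log2 in WT was the smallest of this group (log2 0.21, SE 0.266, adjusted p = 0.591), at -0.197 without WT_VitD 2. The helicase subunits Mcm2, Mcm3 and Mcm6 rose by 1.45, 0.97 and 0.60 on the log2 scale, and Mcm7 had 0.48 (adjusted p = 0.180). Cdc45, which joins the helicase to the fork, had 0.83 (adjusted p = 0.199). In the group of 10, 3 genes were called without WT_VitD 1 and 0 without WT_VitD 2, WT_vehicle 1 or WT_vehicle 2 or with the number range in the model, with medians between 0.52 and 1.15.

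Nucleotide supply rose in 3 of 4 genes in WT, with a median log2 of 1.26. Rrm2, the S phase subunit of ribonucleotide reductase, had 7.64 and 5.54 CPM in Tet2KO_VitD, 10.4 and 17.2 CPM in WT_VitD, 3.44 and 4.02 CPM in Tet2KO_vehicle, and 4.41 and 1.71 CPM in WT_vehicle libraries. VitD and vehicle libraries did not overlap and WT_vehicle 2 was lowest (log2 2.17, SE 0.459, adjusted p = 0.0185). Tk1, thymidine kinase, had 10.2 and 14.03 CPM in Tet2KO_VitD, 13.7 and 18.5 CPM in WT_VitD, 10.1 and 8.04 CPM in Tet2KO_vehicle, and 10.4 and 11.2 CPM in WT_vehicle libraries. Tet2KO_VitD 1 stood among the vehicle libraries, and the WT difference missed the threshold (log2 0.57, SE 0.264, adjusted p = 0.148). Tyms, thymidylate synthase, and Rrm1, the large reductase subunit, rose by 1.51 and 1.01 on the log2 scale. Of the 4 genes, 2 were called without WT_VitD 1, 0 without WT_VitD 2, 1 without WT_vehicle 1, 0 without WT_vehicle 2 and 0 with the number range in the model, with medians between 0.99 and 1.52.

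Genes of G1 and its exit moved least, with 2 of 6 called higher in WT and a median log2 of 0.64. Ccne1, the cyclin that activates CDK2 before S phase, had 1.93 and 1.98 CPM in Tet2KO_VitD, 2.12 and 5.32 CPM in WT_VitD, 1.23 and 1.23 CPM in Tet2KO_vehicle, and 0.684 and 0.684 CPM in WT_vehicle libraries. WT_VitD 2 stood far above the others, and all VitD libraries lay above all vehicle libraries (log2 2.44, SE 0.535, adjusted p = 0.0202). E2f1, the activator of S phase genes, had 10.9 and 6.995 CPM in Tet2KO_VitD, 12.4 and 14.7 CPM in WT_VitD, 5.34 and 5.14 CPM in Tet2KO_vehicle, and 5.97 and 4.50 CPM in WT_vehicle libraries. It rose without overlap (log2 1.37, SE 0.301, adjusted p = 0.0200). Mybl2, which encodes B-MYB, had 2.61 and 1.89 CPM in Tet2KO_VitD, 2.58 and 3.06 CPM in WT_VitD, 1.04 and 1.40 CPM in Tet2KO_vehicle, and 1.68 and 1.99 CPM in WT_vehicle libraries. In WT its groups lay apart by a small margin (log2 0.62, SE 0.411, adjusted p = 0.298), and Tet2KO_VitD 2 stood below WT_vehicle 2.

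Ccnd1, the D cyclin induced by growth signals, had 40.4 and 22 CPM in Tet2KO_VitD, 32.3 and 46.3 CPM in WT_VitD, 26.3 and 23.9 CPM in Tet2KO_vehicle, and 24.6 and 25.2 CPM in WT_vehicle libraries. Tet2KO_VitD 2 was the lowest of all 8, and the WT difference missed the threshold (log2 0.66, SE 0.291, adjusted p = 0.132, -0.219 with the number range in the model). Ccne2, the second E cyclin, had 5.47 and 4.49 CPM in Tet2KO_VitD, 5.83 and 7.64 CPM in WT_VitD, 4.17 and 5.47 CPM in Tet2KO_vehicle, and 6.78 and 3.36 CPM in WT_vehicle libraries. The groups overlapped in both genotypes (log2 0.41, SE 0.383, adjusted p = 0.453), and without WT_vehicle 2 its log2 in WT was -0.0057. Cdk2, the partner kinase of the E cyclins, had 23.97 and 21.9 CPM in Tet2KO_VitD, 18.9 and 24.2 CPM in WT_VitD, 20.6 and 18.3 CPM in Tet2KO_vehicle, and 22.4 and 18.4 CPM in WT_vehicle libraries. WT_VitD 1 was below WT_vehicle 1, and the WT difference was the smallest of all 45 (log2 0.08, SE 0.210, adjusted p = 0.801, 95% interval -0.39 to 0.56). Its sign turned with the number range in the model (-0.048), without WT_VitD 2 (-0.106) and without WT_vehicle 2 (-0.052). For the 6 genes of G1 control, 1 was called without WT_VitD 1 and 0 without WT_VitD 2, WT_vehicle 1 or WT_vehicle 2 or with the number range in the model, with medians between 0.14 and 0.85. Part of the exons of Ccnd1 (1100 bases) overlaps LTO1, and part of those of Ccne2 overlaps Ints8, on the other strand, and the sources used here do not give the strand setting of the counting.

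The same treatment comparison under the knockout label asks how mice meant to lack Tet2 in smooth muscle respond. All 45 members again had a log2 above 0, with a median of 1.15 (2.22-fold), against 1.95 in WT, and no member passed the edgeR adjusted threshold in either direction. Of all genes tested, 0.179% rose and 0.0185% fell. At an unadjusted p under 0.05, 28 of 45 members were higher, against 8.65% of all genes. DESeq2 called 9 members higher, namely Cdk1, Ccnb1, Plk1, Bub1, Ube2c, Birc5, Kif20a, Prc1 and Tpx2, and called 2.97% of all genes in either direction, while limma voom called 0 members (21 at an unadjusted p under 0.05) and 0.0494% of genes. In 42 members both Tet2KO_VitD libraries lay above both Tet2KO_vehicle libraries, as did 23.7% of genes, with Cdc45, Ccnd1 and Ccne2 as the exceptions. Both VitD comparisons use separate libraries but 1 estimate of the spread.

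Median log2 values of the gene groups under the knockout label were 1.66 for the kinetochore, 1.65 for mitotic entry, 1.64 for the checkpoint, 1.24 for the spindle, 0.64 for nucleotide supply, 0.57 for replication and 0.49 for G1. They depended on the library: without Tet2KO_VitD 1 they were 1.05 for the kinetochore, 1.20 for mitotic entry, 1.39 for the checkpoint, 1.14 for the spindle, 0.54 for nucleotide supply, 0.295 for replication and 0.304 for G1. The largest values belonged to Bub1 (log2 2.45, SE 0.643, adjusted p = 0.187), Ccnb1 (log2 2.25, SE 0.481, adjusted p = 0.119) and Birc5 (log2 2.003, SE 0.383, adjusted p = 0.0898). Mki67 had 1.997, Plk1 1.88 and Cdk1 1.90, while Cdk2 had 0.24 and Ccne2 0.042. Members with a log2 of at least 2 numbered 3, against 22 in WT, and 42 of 45 had a smaller log2 than in WT, Mcm4, Cdk2 and Mybl2 being the exceptions.

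The Tet2KO_VitD libraries differed from each other in the set, with Tet2KO_VitD 1 above Tet2KO_VitD 2 in 43 of 45 members and a median ratio of 1.42. Tet2KO_VitD 1, of the higher number range, lay close to WT_VitD 1, above it in 24 of 45 members with a median ratio of 1.01. Tet2KO_VitD 2 lay above WT_VitD 1 in 3, with a median ratio of 0.673. The same libraries also differed in other marker sums, with 4798 CPM in Tet2KO_VitD 1 and 1479 CPM in Tet2KO_VitD 2 for endothelial cells, 985 and 3355 CPM for adipocytes, and 315 and 85.3 CPM for erythroid cells. The part of these cell types in the members' values was not tested. Within the lower number range, Tet2KO_VitD 2 lay above all 4 vehicle libraries in 36 of 45 members, as it did in 21.5% of all genes. The fit without Tet2KO_VitD 1, which compares libraries of the lower range alone, gave a median log2 of 0.84, with 43 of 45 above 0. Without Tet2KO_VitD 2 the median was 1.34, with 45 of 45 above 0.

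**Figure D4:**
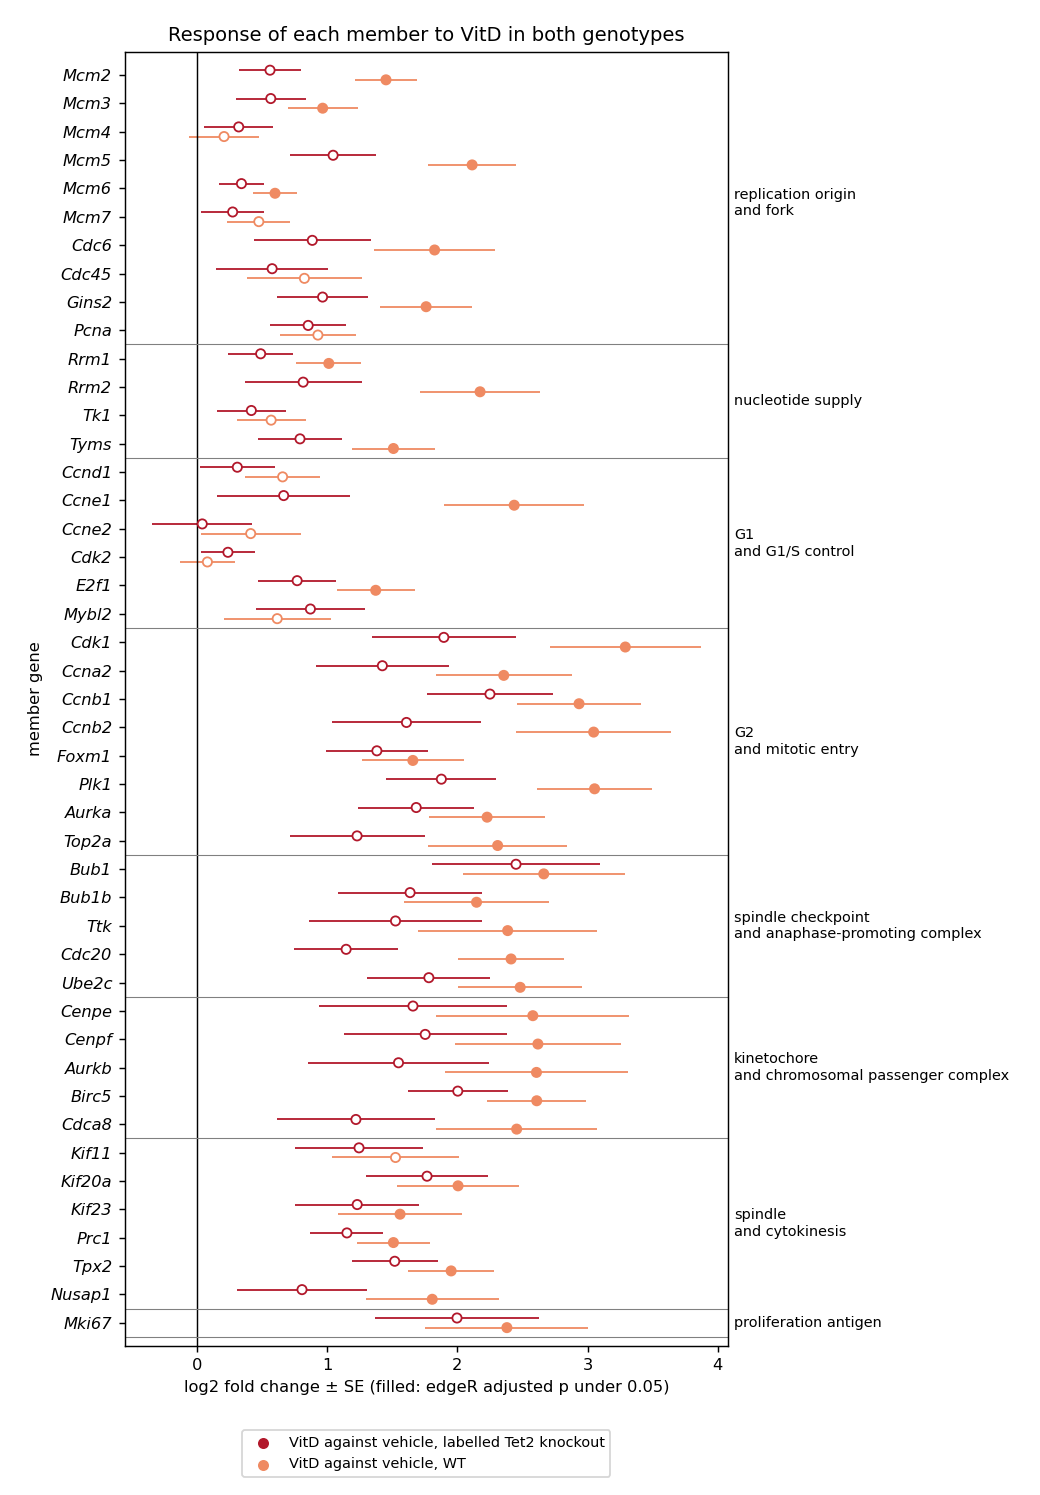
Log2 fold change of VitD against vehicle for each of the 45 members in the libraries labelled Tet2 knockout (dark red) and in WT (orange), with bars of 1 SE. Filled points passed an edgeR adjusted p under 0.05. All 90 points stand right of 0, 35 of 45 WT points are filled and none of the others, and WT points stand right of the dark red points in 42 rows.

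Tet2 knockout against WT under vehicle asks for a difference before treatment. The members' median log2 was -0.00027, with 22 above 0 and 23 below. This balance rested on the spread of the WT_vehicle libraries: the median was 0.53 with 41 above 0 and 5 higher at an unadjusted p under 0.05 without WT_vehicle 1, and -0.285 with 6 above 0 and 1 lower at such a p without WT_vehicle 2. With all libraries 0 were called by edgeR (0 at an unadjusted p under 0.05), 0 by DESeq2 and 0 by limma voom. Over all genes edgeR called 0%, DESeq2 0.105% and limma voom 0%, and 2.97% had an unadjusted p under 0.05 by edgeR. Mki67 had a log2 of -0.45 (95% interval -1.88 to 0.97), Cdk1 0.40 (-0.92 to 1.73) and Ccne1 0.84 (-0.40 to 2.08). Both WT_vehicle libraries differed enough that Mki67 stood at 1.05 without WT_vehicle 1 and Cdk1 at -0.25 without WT_vehicle 2, so these intervals leave room for differences of either sign.

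Under VitD the libraries labelled Tet2 knockout stood below WT in 42 of 45 members, with a median log2 of -0.60, and 0 were called by edgeR, DESeq2 or limma voom. The exceptions were Mcm4, Cdc45 and Cdk2. The calls over all genes were 0%, 0.619% and 0% by edgeR, DESeq2 and limma voom. At an unadjusted p under 0.05, 6 members were lower by edgeR, 7 by DESeq2 and 9 by limma voom. By edgeR 763 of all 16194 genes were lower at such a p, and 10.6% had such a p in either direction. In 20 of 45 members both Tet2KO_VitD libraries lay below both WT_VitD libraries, as did 21.6% of genes. Cdc20 had a log2 of -1.15 (SE 0.385, adjusted p = 0.457), Rrm2 -1.07 (SE 0.436, adjusted p = 0.467), Cdk1 -0.99 (SE 0.513), Ccne1 -0.93 (SE 0.489) and Mki67 -0.84 (SE 0.590). Within the higher number range, with Tet2KO_VitD 1 alone on the knockout side, the median was -0.36 and 8 of 45 members were above 0. It was -0.97 without Tet2KO_VitD 1, -0.94 without WT_VitD 1 and -0.26 without WT_VitD 2.

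The difference between the VitD effects of both genotypes was itself tested as an interaction. Its median log2 over the members was -0.60, with 42 of 45 below 0, and 0 members were called by edgeR (3 at an unadjusted p under 0.05, namely Mcm2, Mcm5 and Ccne1, named after their values were seen). DESeq2 and limma voom also called 0, with 4 and 1 at an unadjusted p under 0.05. Over all genes the calls were 0%, 0.0959% and 0%, and 6.21% had an unadjusted p under 0.05 by edgeR in either direction. Below 0, the direction of Mcm2, Mcm5 and Ccne1, 456 of 16194 genes had such a p. Ccne1 had -1.77 (95% interval -3.43 to -0.11, adjusted p = 0.794), Cdk1 -1.39 (-3.15 to 0.37) and Mki67 -0.38 (-2.33 to 1.57). The smaller VitD difference under the knockout label did not pass the test of the difference, and for Mki67 the interval holds differences of either sign.

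Levels per exon length were set by the exon sum of GENCODE M21 as RPKM, reads scaled for exon length and depth. Under vehicle in WT, Pcna had a mean of 17.7 RPKM, Mcm6 of 13.6, Mcm4 of 5.41, Ccnd1 of 5.29 and Mcm7 of 4.73. At the other end Cenpf stood at 0.103 RPKM, Ttk at 0.124, Bub1 at 0.175 and Cenpe at 0.178. The 5 most abundant members per length were thus genes of replication and G1, all with a log2 above 0 in WT. Of these only Mcm6 passed the edgeR threshold, while Pcna missed it at a larger log2 (0.93, against 0.60 for Mcm6). The 4 least abundant all passed it. Under VitD in WT, Pcna had 33.7 RPKM, Mcm6 20.5, Ccnb2 7.38 and Cdc20 6.79, against 0.898 for Ccnb2 and 1.27 for Cdc20 under vehicle in WT.

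Other genes of the same processes, taken from lists that do not overlap the set, were counted in the same fit. Like the members, these lists were chosen with earlier results of these data known. Of 58 other mitosis genes, 41 rose and none fell in WT by edgeR (median log2 2.11), and DESeq2 called 45 higher and 1 lower. In the libraries labelled Tet2 knockout edgeR called 0, with 38 higher at an unadjusted p under 0.05 (median 1.33), and DESeq2 called 9 higher. Without Tet2KO_VitD 2 the median log2 of these mitosis genes was 1.635. Those with the smallest p were the mitotic kinase gene Pbk (log2 3.40, SE 0.488, adjusted p = 0.00667), the scaffold gene Iqgap3 (log2 2.34, SE 0.339, adjusted p = 0.00667), the abscission gene Cep55 (log2 3.496, SE 0.579, adjusted p = 0.0103) and the mitotic entry gene Cdca3 (log2 3.16, SE 0.530, adjusted p = 0.0106). Of 41 other replication genes, 16 rose and none fell in WT by edgeR (median 0.85). Under the knockout label edgeR called 0 (12 at an unadjusted p under 0.05, median 0.59) and DESeq2 called 1. Without Tet2KO_VitD 2 the median was 0.67. Among all genes tested 10.6% rose in WT by edgeR. Under the knockout label 8.65% of all genes were higher at an unadjusted p under 0.05 by edgeR. DESeq2 called 2.97% there in either direction. The leading genes were the origin licensing factor Cdt1 (log2 2.64, SE 0.386, adjusted p = 0.00694), the histone chaperone subunit Chaf1b (log2 2.74, SE 0.455, adjusted p = 0.0103), the helicase part Gins1 (log2 3.07, SE 0.520, adjusted p = 0.0106) and the DNA ligase Lig1 (log2 1.45, SE 0.251, adjusted p = 0.0115). Calls among the 58 and 41 genes numbered 0 and 0 without WT_VitD 2, 3 and 2 without WT_vehicle 2, 11 and 2 without WT_vehicle 1, and 32 and 8 without WT_VitD 1. With the number range as a covariate both had 0, with medians of 1.49 and 0.70.

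Inhibitors of the cycle were measured beside its motors. Cdkn1a, which encodes the CDK inhibitor p21, had 143 and 91.4 CPM in Tet2KO_VitD, 141 and 171 CPM in WT_VitD, 45.2 and 54.9 CPM in Tet2KO_vehicle, and 48.5 and 52.1 CPM in WT_vehicle libraries. All VitD libraries lay above all vehicle libraries, and the WT rise had a log2 of 1.63 (SE 0.241, adjusted p = 0.0071). Under the knockout label its log2 was 1.23 (adjusted p = 0.0937). Cdkn3, a phosphatase that is itself made in cycling cells, and Cdkn2c, a CDK4 and CDK6 inhibitor, rose by 3.15 and 0.86 on the log2 scale in WT, and the other 4 of 7 tested inhibitors passed in neither direction. Cdkn2a, the locus of the senescence inhibitor p16, had 2 and 7 counts in Tet2KO_VitD, 2 and 10 counts in WT_VitD, 7 and 2 counts in Tet2KO_vehicle, and 0 and 1 counts in WT_vehicle libraries, and was too low to be tested. Among inhibitors under the knockout label edgeR called 0 (2 at an unadjusted p under 0.05) and DESeq2 2. DESeq2 called 2.97% of all genes there in either direction. The median log2 of the inhibitors was 0.59 with all libraries and 0.93 without Tet2KO_VitD 2. The 3 WT calls became 2 without WT_VitD 1, 0 without WT_VitD 2, 0 without WT_vehicle 1, 2 without WT_vehicle 2 and 0 with the number range in the model.

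Growth-factor immediate and early genes rose in 6 of 11 cases in WT by edgeR (median log2 0.89), against 10.6% of all genes. In libraries with the knockout label edgeR called 0 (6 at an unadjusted p under 0.05) and DESeq2 called 3. DESeq2 called 2.97% of all genes there in either direction. The median log2 of the early genes was 0.80 with all libraries and 0.74 without Tet2KO_VitD 2. The WT calls included Junb (log2 2.001, SE 0.225, adjusted p = 0.00284), Myc (log2 2.41, SE 0.295, adjusted p = 0.00370), Egr2 (log2 2.08, SE 0.343, adjusted p = 0.0101) and Fosl1 (log2 1.48, SE 0.298, adjusted p = 0.0162), all transcription factors of the early response. Myc, a driver of growth and G1 entry, had 36.3 and 20.9 CPM in Tet2KO_VitD, 26.2 and 25.3 CPM in WT_VitD, 7.18 and 8.88 CPM in Tet2KO_vehicle, and 4.66 and 5.01 CPM in WT_vehicle libraries. No VitD library overlapped the vehicle libraries. The number called was 3 without WT_VitD 1 or WT_VitD 2, 2 without WT_vehicle 1 or WT_vehicle 2 and 0 with the number range in the model.

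Each of the remaining lists of cycle-related genes had at most 1 gene called higher and at most 1 called lower in WT. Among all genes tested 10.6% rose and 9.47% fell in WT. These lists leave out E2f1, Foxm1, Ccne1 and Myc, given above as called higher in WT. Of 4 D cyclins and their kinases, Ccnd2, the D cyclin of highest CPM here, fell in WT, with 186 and 186 CPM in Tet2KO_VitD, 185 and 157 CPM in WT_VitD, 255 and 250.4 CPM in Tet2KO_vehicle, and 274 and 253 CPM in WT_vehicle libraries. Its 4 VitD libraries lay below all vehicle libraries, and its log2 in WT was -0.62 (adjusted p = 0.0423). Among 12 pocket proteins and other E2F factors, Rbl2, the p130 pocket protein of resting cells, fell (log2 -0.60, adjusted p = 0.0384) and no other gene was called. Among 7 genes of the MuvB core and MYB, Mybl1, a MYB factor related to B-MYB, rose (log2 1.21, adjusted p = 0.0176). Myb, the MYB factor of blood cell precursors, named after its values were seen, had 0.186 and 0.264 CPM in Tet2KO_VitD, 0.265 and 0.170 CPM in WT_VitD, 1.11 and 3.96 CPM in Tet2KO_vehicle, and 10.2 and 0.342 CPM in WT_vehicle libraries. Its log2 was -4.57 in WT (adjusted p = 0.0506) and -3.43 under the knockout label (adjusted p = 0.336), and its level was highest in WT_vehicle 1, the library with the highest sum of T cell and thymocyte markers. Of 16 quiescence and anti-proliferative genes, Gas6, a growth-arrest-specific ligand of TAM receptors, rose (log2 1.64, adjusted p = 0.0106) and Txnip, which encodes a thioredoxin-binding protein, fell (log2 -0.71, adjusted p = 0.0466). Among 14 genes of the anaphase-promoting complex core and its inhibitors, Anapc5, a core subunit, fell (log2 -0.79, adjusted p = 0.0415). Under the knockout label none of these lists had a call by edgeR, and DESeq2 called 1 quiescence gene higher. DESeq2 called 2.97% of all genes there in either direction. Without Tet2KO_VitD 2 the median log2 was -0.32 for the D cyclins and their kinases and 0.17 for the quiescence list. With the number range in the model edgeR called none. In WT there was none without WT_VitD 2 or WT_vehicle 1, 1 higher in the quiescence list without WT_VitD 1, and 1 lower in the MuvB list without WT_vehicle 2.

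Markers of other cell types moved beside the members. The 13 macrophage markers summed to 2856 and 1718 CPM in Tet2KO_VitD, 2835 and 3320 CPM in WT_VitD, 882.0 and 1133 CPM in Tet2KO_vehicle, and 801 and 775 CPM in WT_vehicle libraries. The summed CPM of the 45 members was 684 and 485 in Tet2KO_VitD, 689 and 963 in WT_VitD, 342 and 342 in Tet2KO_vehicle, and 407 and 293 in WT_vehicle libraries. In both sums Tet2KO_VitD 2 stood between the vehicle libraries and the other VitD libraries. Of the macrophage markers 12 of 13 rose in WT, and 1 rose under the knockout label, and no marker was at 0 in all libraries. Of all genes tested, 10.6% rose in WT and 0.179% under the knockout label. Of 11 neutrophil markers 7 were tested and 6 rose in WT, and all 11 summed to 36.6 and 20.1 CPM in Tet2KO_VitD, 49.4 and 89.8 CPM in WT_VitD, 16.0 and 10.4 CPM in Tet2KO_vehicle, and 10.5 and 4.73 CPM in WT_vehicle libraries.

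Contractile smooth muscle markers summed to 25520 and 34810 CPM in Tet2KO_VitD, 27800 and 18660 CPM in WT_VitD, 38160 and 35340 CPM in Tet2KO_vehicle, and 37390 and 38040 CPM in WT_vehicle libraries. Of 12 such markers 5 fell in WT, as did 9.47% of all genes tested. The library with the lowest sum, WT_VitD 2, was also the highest for 41 members. Markers of T cells and of thymocytes, which divide in the thymus, summed to 7.39 and 5.46 CPM in Tet2KO_VitD, 11.3 and 9.68 CPM in WT_VitD, 23.9 and 45.5 CPM in Tet2KO_vehicle, and 133 and 9.97 CPM in WT_vehicle libraries. WT_vehicle 1, which exceeded WT_vehicle 2 in 42 of 45 members, thus also had the highest sum of this list, and the thymocyte recombinase Rag2 had 43 counts in WT_vehicle 1 and 0 in WT_vehicle 2. The part of these cell types and of the number range in the members' differences was not tested.

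**Figure D5:**
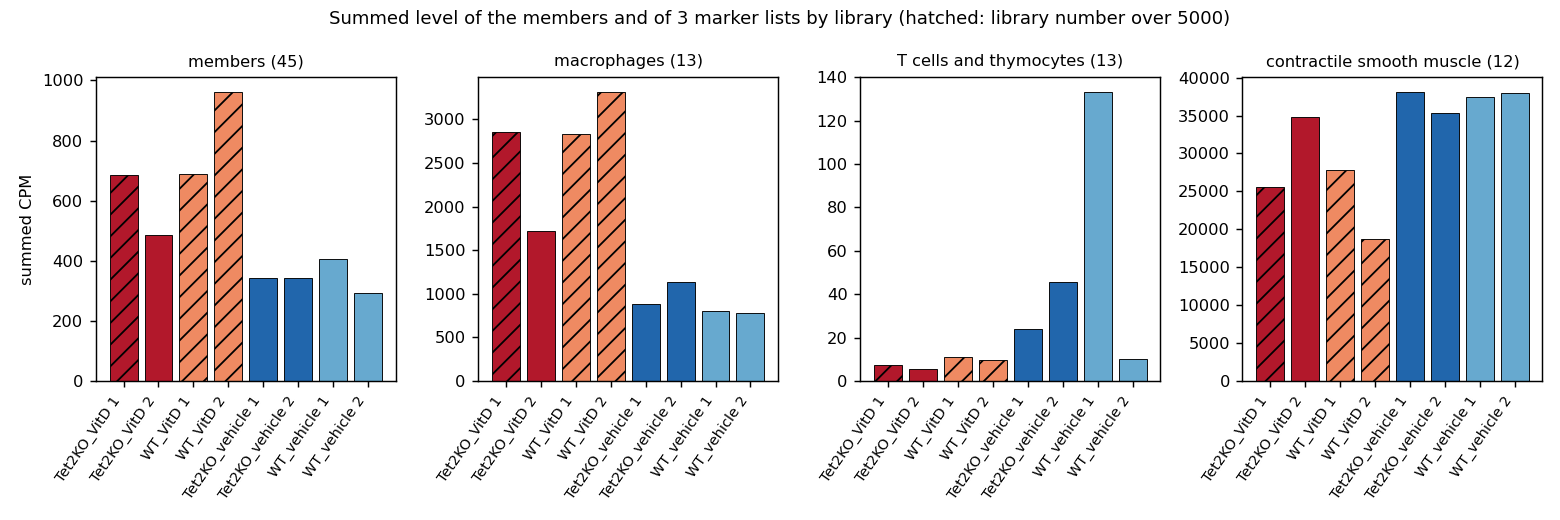
Summed CPM of the 45 members and of the marker lists of macrophages, T cells with thymocytes, and contractile smooth muscle, by library, on linear axes from 0. Hatched bars are libraries of the higher number range. Bars of members and macrophages stand highest in the hatched libraries and next in Tet2KO_VitD 2, those of smooth muscle stand lowest in WT_VitD 2 (18660 CPM), and the T cell bar of WT_vehicle 1 (133 CPM) stands above all others.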

How the data were processed

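Per the labels' protocols, poly-A libraries were made from total RNA with a stranded kit. The submitters' processing notes list the build mm10 and, as tools, featureCounts 2.0.2, STAR 2.7.8a and Trimmomatic 0.39, and the sources used here give no annotation release or strand setting. The authors deposited raw counts per gene symbol, without normalisation. Groups and replicate numbers came from the sample titles.

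Counts were fitted with edgeR 4.0.16 (R 4.3.3) over all 8 libraries, with TMM factors, the filterByExpr filter, 1 mean per group, no covariate and 4 residual degrees of freedom. Quasi-likelihood tests of 5 contrasts were adjusted by Benjamini-Hochberg over all 16194 genes, with a threshold of 0.05. Intervals are at the 95% level. The SE is the log2 fold change divided by the square root of F. Alternatives were other scalings, DESeq2 1.42.0, limma 3.58.1 voom with quality weights, other filters, a replicate block, the number range as a model term, a fit restricted to the compared groups, removal of a length trend, and each library left out. DESeq2 used no filterByExpr filter.

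Named genes followed a rule: all members, library values for the main regulators and the extremes of each functional group, and for other lists up to 4 called genes with the smallest p, plus Cdkn1a and Cdkn2a. The members and lists were chosen with earlier results of these data known. Of 48587 symbols, 95.5% matched exactly 1 gene of GENCODE M21, which gave exon lengths and overlaps. Sgo1, Sgo2a and Knl1 were found under older symbols. On simulated counts for VitD against vehicle in WT (16194 genes), the procedure recovered 14% of 100 genes with a log2 of 1 and 71% of 100 with a log2 of 2, with 7 false calls. Only those genes were changed, all upward, whereas edgeR called 3251 genes in the data. The adjusted threshold depends on how many genes change, so these shares do not give the power in the data. Figures were drawn with matplotlib 3.10.9.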

Additional observations from a re-analysis of the deposited data

How the results depend on the processing

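The count of members called higher for VitD in WT ranged from 0 to 38 when 1 library was left out, and the median log2 from 1.55 to 2.39. The count was 0 with the number range in the model, where 58 of all genes were called in either direction. It was between 35 and 38 under the other scalings, tools and filters and the fit of the compared groups alone. Those fits called 3214 to 4808 of all genes in either direction. Between groups, deviations of libraries with the same replicate number had correlations from -0.161 to 0.157. The labels do not say whether the numbers 1 and 2 pair libraries. With the replicate block 31 members were called in WT, against 35, and 0 in each other comparison. Under the knockout label the count of 0 became 9 with DESeq2 and 23 with no filter, and ranged from 0 to 12 with 1 library left out (median log2 0.84 to 1.34). Counts for genotype and interaction were 0 under every alternative run, with medians from -0.285 to 0.53 for genotype under vehicle, -0.97 to -0.26 for genotype under VitD and -1.05 to -0.26 for the interaction when 1 library was left out. Calls over all genes rose too under the knockout label, from 32 in either direction in the main fit to 461 with DESeq2 and 1225 with no filter. They also rose in the fit without Tet2KO_VitD 2, which gave the highest count of members there with 1 library left out. Whether the members gained more than their share was not tested. DESeq2 and the fit without a filter also tested other sets of genes, and causes were not tested.

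Signs turned for single genes that had not been called. In WT, Pcna, Ccnd1 and Cdk2 turned with the number range in the model (log2 -0.0718, -0.219 and -0.0485). With 1 library left out, log2 in WT ranged from -0.197 to 0.566 for Mcm4, -0.0057 to 1.009 for Ccne2 and -0.106 to 0.290 for Cdk2. Under the knockout label Ccnd1 and Ccne2 turned with the number range in the model (-0.191 and -0.105), and with 1 library left out ranged from -0.182 to 0.687 and -0.139 to 0.250. For genotype under vehicle the same ranges were -1.18 to 1.05 for Mki67 and -0.254 to 1.59 for Cdk1, and for the interaction -1.89 to 0.339 for Mki67.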

Other observations

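Some members lie close together on chromosome 11, where Tk1 and Birc5 are separated by 23.2 kb and Cdc6 and Top2a by 69.0 kb (GENCODE M21). The neighbours had different log2 fold changes for VitD in WT, 0.57 for Tk1 and 2.61 for Birc5, and 1.82 for Cdc6 and 2.31 for Top2a.

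Markers of modulated smooth muscle rose in 8 of 10 cases in WT and in 3 of 10 in the libraries labelled Tet2 knockout, where no member of the cell cycle set was called by edgeR. Of all genes tested, 10.6% rose in WT and 0.179% under the knockout label. Skeletal muscle markers summed to 28.4 and 21.7 CPM in Tet2KO_VitD, 126 and 532 CPM in WT_VitD, 26.9 and 16.9 CPM in Tet2KO_vehicle, and 36.2 and 39.3 CPM in WT_vehicle libraries, highest in WT_VitD 2. Mesothelial markers summed to 94.6 and 70.3 CPM in Tet2KO_VitD, 126 and 249.6 CPM in WT_VitD, 55.5 and 131 CPM in Tet2KO_vehicle, and 52.6 and 52.1 CPM in WT_vehicle libraries.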
